A study of Mus musculus with 16 samples.

Results

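The genotype difference that mouse skeletal muscle showed on both of 2 diets was examined: genes higher, or lower, on CB1KO arrays than on WT arrays when the diets were averaged, with the estimate pointing the same way on each diet. All 16 arrays of the series were used, 4 in each of 4 groups taken from the sample titles, and 204 of the 28964 genes tested met the rule, 91 of them higher and 113 lower in CB1KO. Below they are called the shared genes. CB1KO stands for arrays labelled as skeletal muscle-specific knockouts of the cannabinoid 1 receptor (Skm-CB1R-/-), from mice with a LoxP-flanked Cnr1 gene and Cre recombinase driven by the ACTA1 promoter, which is active in skeletal muscle fibres. WT stands for control littermates (Skm-CB1R+/+). The protocol gives both genotypes the same floxed allele and lists both as Cre-positive, so the genotype was read from the titles. All mice were male and 21 to 23 weeks old, and tissue was taken after 15 weeks of diet. By energy, fat made up 16.7% and sugar 12.4% of the standard diet (SD), against 49.2% and 32.2% of the diet rich in both (HFHS). The diet tag of the CB1KO_SD and WT_HFHS arrays contradicts the titles, which were followed because the source names and descriptions match them. The protocol also mentions assignment to vehicle or S961, an insulin receptor blocker, without saying which mice received it. Neither the muscle dissected nor the source of the replicates beyond that name is given, so p values measure the spread between these samples only. Levels are log2 intensities minus the 75th percentile of the array, and differences are CB1KO minus WT on that scale with their standard errors (SE).

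The cannabinoid 1 receptor is a G protein-coupled receptor for the lipid signals anandamide and 2-arachidonoylglycerol. It is best known from nerve terminals, where it couples to inhibitory G proteins and lowers transmitter release, and it is also found at lower levels in muscle, fat and liver, where it bears on fuel use. Muscle fibres contract when acetylcholine from the motor nerve opens nicotinic receptors and calcium leaves the sarcoplasmic reticulum, the store from which calcium pumps refill. Many genes of that route are known to change in muscle that has lost its nerve input or is regenerating.

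The share of spots well above background ran from 56.7% to 75% over the arrays, without saturation. Signals were spread unusually little on CB1KO_SD replicate 2 (SD 2.89 on the log2 scale) and unusually widely on CB1KO_HFHS replicate 1 (3.97), the other arrays lying between 3.14 and 3.69. Both were kept, and without them 201 of the 204 shared genes still met the rule, among 295 higher and 588 lower. SD arrays lay on 1 slide and HFHS arrays on another, so slide and diet cannot be told apart. On each slide WT lay in 1 row and CB1KO in the other, so slide row and genotype cannot be told apart either. All 12 fibre markers, such as Acta1, Ckm and Myh4, stood well above background on all 16 arrays. In bulk tissue, fewer cells of a type and less RNA per cell cannot be told apart.

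Cnr1, the targeted gene, was not distinguishable between the genotypes. Its level was -1.85, -2.07, -2.78 and -3.46 on WT_SD and -2.34, -3.54, -3.19 and -2.01 on CB1KO_SD. On HFHS it was -1.71, -2.14, -2.98 and -1.55 on WT and -1.24, -2.75, -2.24 and -2.70 on CB1KO. The groups overlap on both diets, and the averaged difference was -0.18 (SE 0.33; exact permutation p = 0.582 with genotype permuted within diet). Where the probe lies relative to the deleted part of the gene was not analysed here, so this gene does not check the labels. Il6, an inflammatory cytokine, differed by 1.20 (SE 0.44) with limma's adjusted p = 0.237, and by an exact permutation p of 0.029. The difference lay at 2.19 on SD and 0.21 on HFHS, with overlapping groups on both. Il6 was dim, standing well above background on 3 of 4 arrays in each SD group, and ran from -2.62 to 1.19 on CB1KO_SD. Mstn, which encodes myostatin, the inhibitor of muscle growth, differed by -0.76 (SE 0.31) with adjusted p = 0.285 by limma and an exact permutation p of 0.0355. It was -0.64 on SD and -0.88 on HFHS, with overlapping groups on both. Adjusted over the 3 genes of the title, the exact p was 0.0532 for Il6 and for Mstn, and 0.000408 was the smallest that these permutations allow.

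The shared genes were few, and they were drawn from both directions. Of all genes tested, 0.708% were called in the averaged contrast (limma, adjusted p under 0.05), 0.314% as shared and higher and 0.390% as shared and lower. Of the 204, 136 carry a gene symbol, and the others are counted by the file's own identifier. Whether some of the latter measure the same transcript as another counted gene was not tested. The median of all genes tested was -0.12 in the averaged contrast, and 50.3% of all genes were lower on both diets against 15.1% higher on both, so a lower estimate was the more common one on these arrays. The shared higher genes ran from 0.38 to 4.34 with a median of 1.20, and the shared lower genes from -2.93 to -0.37 with a median of -0.91. In 42 of the 204, at least 1 group had no array well above background, and in 29 of these all 8 arrays of a genotype were so, which means that these 29 passed the filter on dim probes through the other genotype alone. CB1KO and WT arrays did not overlap on either diet for 80 of the shared genes, and for 0.511% of all genes. Just inside the threshold lay Amy1 at -0.81 and Pcx at -0.64, both with adjusted p = 0.0499 by limma, and just outside it E2f2 at 0.80 (0.0511) and Srebf1 at -0.57 (0.0516).

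The SD and HFHS comparisons use different mice, so genes picked on one diet can be looked up on the other. In separate limma fits of 8 arrays each, 482 genes were higher on SD at an unadjusted p under 0.05, and 72.4% of them were also higher on HFHS, against 32.3% of all genes. Of the 1043 genes lower on SD, 83.8% were lower on HFHS, against 67.7% of all genes. Picked on HFHS instead, 71.0% of 1366 higher genes were higher on SD (32.6% of all genes) and 81.6% of 2734 lower genes were lower (67.4%). Same-direction estimates were thus more frequent among picked genes than among all genes, from either diet.

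For the shared genes, the size of the estimated difference was compared between the diets, whose arrays lay on different slides. The array of narrow signal spread was in CB1KO_SD and that of wide spread in CB1KO_HFHS. Their part in the sizes was not tested. Among the higher shared genes, 72 of 91 had the larger difference on HFHS, with medians of 0.95 on SD and 1.57 on HFHS. Among the lower ones the sizes were more even, 57 of 113 being larger on HFHS, with medians of -0.91 and -0.95. No gene had a genotype-by-diet interaction at an adjusted p under 0.05 in limma, 1024 genes had one at an unadjusted p under 0.05, and the lowest adjusted interaction p of a shared gene was 0.854. Of the 204 shared genes, 59 (28.9%) had an unadjusted interaction p under 0.05, against 3.54% of all genes. Among these 59, 43 were higher genes, and 39 of the 43 had the larger difference on HFHS. These counts are a description, since the shared genes were chosen on the same arrays. For the difference on a single diet, the limma model of all 16 arrays called 1 gene on SD and 68 on HFHS (2527 and 2597 at an unadjusted p under 0.05). The rule asks only for the same sign on each diet. In that model, 167 of the 204 shared genes had an unadjusted p under 0.05 on both diets. The shared genes were chosen on the average of these 2 differences, so that count is a description too. At an adjusted p under 0.05 in limma, 41 higher and 16 lower shared genes were called on HFHS. On SD 0 shared genes were, the gene called there being Hspa1a. The separate fits above, which estimate the spread from 8 arrays each, gave other numbers.

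**Figure D1:**
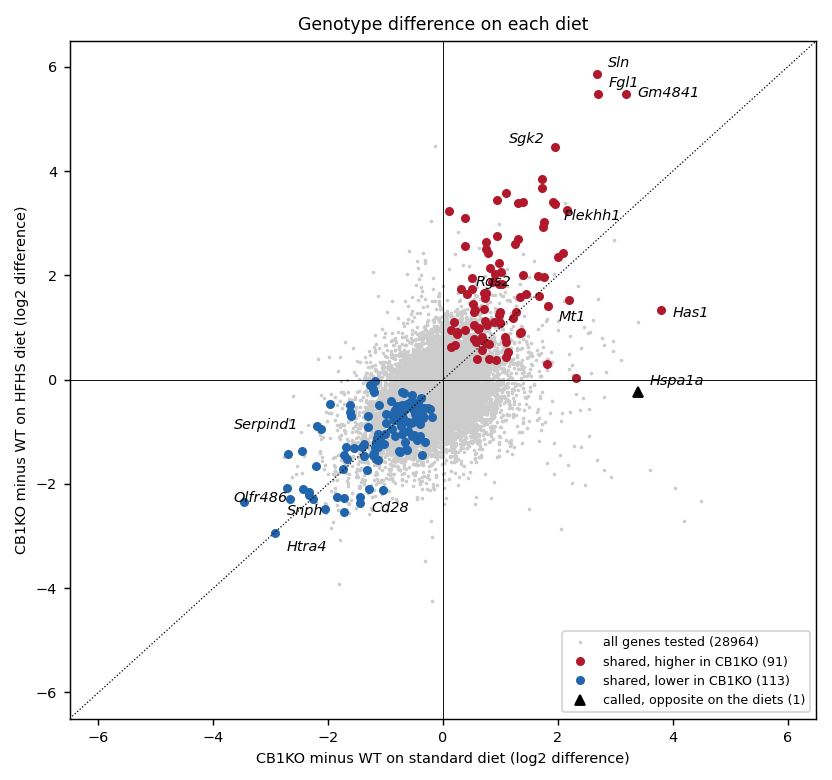
Log2 difference between CB1KO and WT on the standard diet (x) and on the HFHS diet (y) for the 28964 genes tested, with the 91 shared higher genes in red, the 113 shared lower genes in blue and Hspa1a as a triangle. Sln lies above the dotted line of equal size, Htra4 lies on it, and Hspa1a is at 3.40 on SD and -0.24 on HFHS.

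Among genes of the nerve-muscle synapse, the called ones were Chrna1 and Chrna9, both for acetylcholine receptor subunits. Chrna1, the ligand-binding subunit of the muscle nicotinic receptor, was at 2.07, 1.77, 2.36 and 3.01 on WT_SD and at 4.10, 2.84, 2.98 and 4.29 on CB1KO_SD. It was at 2.32, 2.32, 2.69 and 2.50 on WT_HFHS and at 3.74, 5.06, 5.77 and 5.65 on CB1KO_HFHS. The groups separate on HFHS and overlap on SD, where 1 WT array lies above 2 CB1KO arrays. The averaged difference was 1.92 (SE 0.31), a 3.79-fold rise with adjusted p = 0.0167 by limma, and a second probe of the gene gave 2.10. Chrna9, the subunit of a receptor best known from inner ear hair cells, was dimmer. It was at -2.60, -4.09, -3.38 and -2.44 on WT_SD and at -1.65, -0.45, -2.36 and -1.07 on CB1KO_SD. HFHS arrays had it at -2.84, -2.81, -2.55 and -3.43 on WT and at -1.52, -0.51, 1.78 and 0.30 on CB1KO. All 8 CB1KO arrays lay above all 8 WT arrays, with an averaged difference of 2.33 (SE 0.43; limma adjusted p = 0.0262). The Chrna9 call was kept in 9 of the 16 fits that leave out 1 array, and its adjusted p was highest, at 0.0684, without WT_SD replicate 3. The Chrna1 call was kept in all 16.

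The promoters of both receptor genes are shown because the E-box CAGCTG, a motif bound by myogenic factors such as MyoD and myogenin, occurs in each. They are the 250 bases before and 50 after the start, from RefSeq (GRCm38.p6), 5′ to 3′ on the gene's strand, with each E-box in capitals.
Chrna1 (chr2:73580289-73580588, minus strand): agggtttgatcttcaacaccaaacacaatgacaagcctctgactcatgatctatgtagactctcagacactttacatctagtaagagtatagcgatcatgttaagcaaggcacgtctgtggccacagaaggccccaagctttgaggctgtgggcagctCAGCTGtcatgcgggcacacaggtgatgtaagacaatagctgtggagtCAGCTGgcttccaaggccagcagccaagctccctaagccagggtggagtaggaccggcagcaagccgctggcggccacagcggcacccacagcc
Chrna9 (chr5:65966874-65967173, plus strand): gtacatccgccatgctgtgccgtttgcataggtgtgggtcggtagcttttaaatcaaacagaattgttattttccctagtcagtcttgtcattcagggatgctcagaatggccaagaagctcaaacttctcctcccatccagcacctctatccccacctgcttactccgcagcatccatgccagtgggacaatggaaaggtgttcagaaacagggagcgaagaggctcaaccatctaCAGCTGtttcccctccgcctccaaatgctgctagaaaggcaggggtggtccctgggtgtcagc
Chrna1 held 2 copies, 92 and 44 bases before its start, and Chrna9 held 1, 13 bases before. CAGCTG is its own reverse complement, so both strands are covered. Promoters were matched for 105 of the 136 shared genes with a symbol. The letters were present in 33.9% of the 56 higher and 18.4% of the 49 lower ones, and in 16.1% of all 27025 promoters in the table. That table is not limited to genes tested on these arrays. Another motif, the GC box GGGCGG, was present in 55.4% of the higher and 51.0% of the lower ones, and in 35.9% of all. These shares describe letters, not binding.

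The remaining synapse genes mostly missed the threshold. Of 19 measured, 2 were shared, both higher, and none lower, with a list median of 0.11 against -0.12 over all genes. The other subunits of the muscle receptor had positive estimates, among them Chrnb1 at 0.49 (limma adjusted p = 0.067), Chrnd at 0.76 (0.17) and Chrne at 0.70 (0.16). Musk, the kinase that assembles the synapse, was at -0.23 and Rapsn, which clusters the receptors, at 0.10. In a wider list of 22 genes known to rise in denervated muscle, 4 were shared and higher (Sln, Chrna1, Gadd45a and Cdkn1a), against 0.314% of all genes. The list median was 0.56, and 14 members had an unadjusted p under 0.05, as did 14.2% of all genes. That list was written with these results known, so it is not independent evidence of a direction. Its members Trim63 and Fbxo32, the ubiquitin ligases of muscle atrophy, were at -0.50 and -0.45 with adjusted p = 0.30 for both in limma. Among 17 myogenic regulators none was called, while Myod1 was at 0.97 (adjusted p = 0.060), Mymx, a fusion peptide of myoblasts, at 2.75 (0.073), Myog at 1.17 (0.12) and embryonic myosin Myh3 at 2.83 (0.12).

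Markers of other cells and fibre types were set beside these genes. The 10 markers of nerve sheath cells had a median difference of -0.30, with 8 of 10 lower on both diets and none called. Their mean level ran from -0.19 to 1.07 on WT_SD and from 0.00 to 0.60 on CB1KO_SD, and from 0.31 to 0.58 on WT_HFHS and from -0.14 to 0.13 on CB1KO_HFHS. All but Cdh19 stood well above background on every array. The 14 slow-fibre genes had a median difference of 2.42 on SD and -0.53 on HFHS, and their mean level ran from -0.31 to 3.20 on WT_SD against 3.39 to 4.62 on CB1KO_SD. On HFHS it ran from 0.30 to 4.81 on WT and from -0.76 to 4.59 on CB1KO. The slow-fibre levels of the genotypes thus separate on SD and overlap on HFHS. The part of either list in the differences of the shared genes was not tested.

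**Figure D2:**
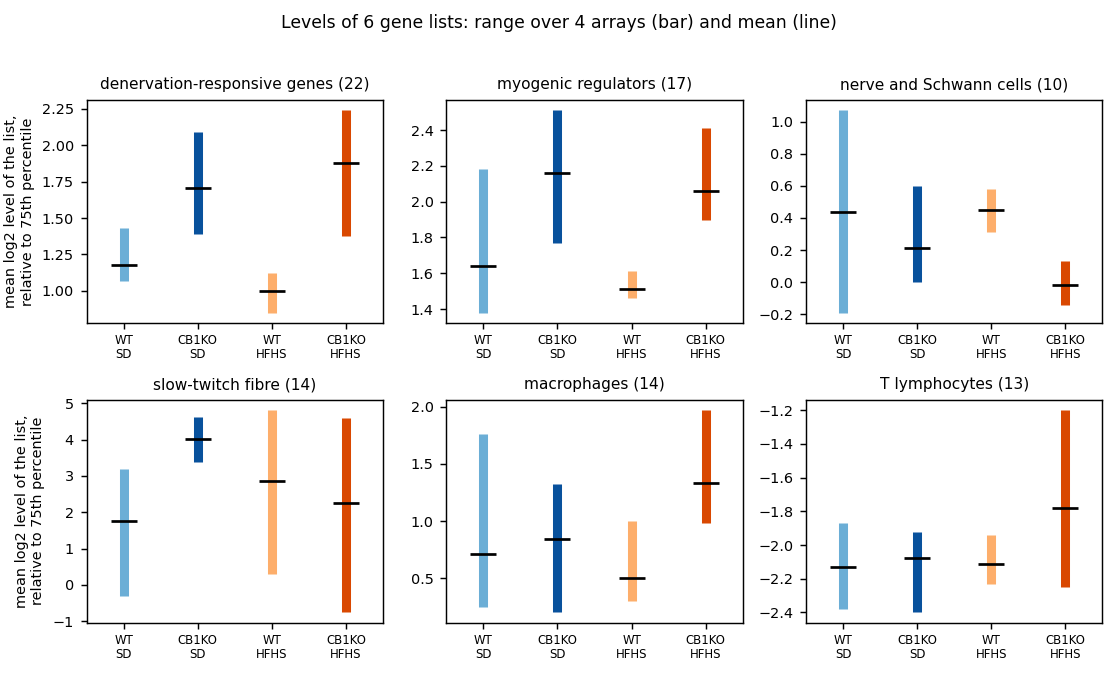
Mean log2 level of 6 gene lists by group, relative to the 75th percentile of the array, with the number of genes measured in brackets. Bars span the lowest to the highest of 4 arrays and lines mark the group mean; slow-fibre genes separate the genotypes on SD only, from 3.39 upward on CB1KO_SD and up to 3.20 on WT_SD.

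Among shared genes well above background on all arrays, Sln had the largest difference. It encodes sarcolipin, a small membrane protein that inhibits the calcium pump of the sarcoplasmic reticulum. Its level was 1.62, 1.48, 1.03 and 1.04 on WT_SD and 4.06, 3.28, 3.54 and 5.01 on CB1KO_SD. With HFHS feeding it was 2.70, 0.75, 1.40 and -0.20 on WT and 4.72, 7.64, 8.24 and 7.50 on CB1KO. Every CB1KO array lay above every WT array, and the lowest of the CB1KO_HFHS arrays was replicate 1, the array of wide signal spread. The averaged difference of 4.27 (SE 0.50) is a 19.3-fold rise with adjusted p = 0.00218 by limma, and without both arrays of unusual spread it was 4.77. The difference was 2.68 on SD and 5.86 on HFHS.

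No other gene of calcium handling in the sarcoplasmic reticulum was called. Of 23 measured, 14 were lower and 3 higher on both diets, and the median was -0.17. The pump genes Atp2a1 and Atp2a2 were at -0.01 and 0.88, the release channel Ryr1 at -0.10 and the calcium buffer Casq1 at 0.01. Cacna2d1, an accessory subunit of the voltage sensor, came nearest to the threshold at -0.49 (limma adjusted p = 0.071). Outside that list, Itpr1, the inositol trisphosphate receptor that releases calcium from internal stores, was lower. It was at 5.13, 4.72, 4.50 and 4.43 on WT_SD and at 2.91, 3.10, 4.21 and 3.88 on CB1KO_SD. On HFHS it was at 4.64, 4.47, 4.06 and 5.18 on WT and at 4.01, 2.95, 2.51 and 2.81 on CB1KO. The genotypes do not overlap within a diet, and the highest CB1KO_HFHS array lies just under the lowest WT_HFHS array. The difference was -1.34 (SE 0.25; limma adjusted p = 0.0304), and the call was kept in 7 of 16 fits with 1 array left out, reaching 0.0734 without WT_HFHS replicate 4.

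Kcnab1, an accessory subunit of voltage-gated potassium channels, was at 1.70, 0.92, 1.17 and 1.63 on WT_SD and at -0.22, -0.39, 0.49 and -0.10 on CB1KO_SD. It was at 0.89, 0.83, 0.30 and 1.05 on WT_HFHS and at 0.03, -0.55, -0.68 and -0.88 on CB1KO_HFHS. Within each diet the genotypes were apart, by -1.41 on SD and -1.29 on HFHS, averaging -1.35 (SE 0.18; limma adjusted p = 0.00559). It was the only called gene among 24 channel genes, whose median was -0.04. Dmd, which encodes dystrophin and links the cytoskeleton to the membrane, fell by 0.78 (SE 0.13; limma adjusted p = 0.0188), and 2 other probes of it gave -0.76 and -0.63. Sorbs2, an adaptor at the Z-disc, fell by 1.13 (adjusted p = 0.0238, limma). Mylk2, the kinase of fast myosin light chains, fell by 0.64 (0.0234) and was the only called gene of 16 fast-fibre genes. Dmd and Sorbs2 lie outside the naming rule and were chosen after their values were seen. Cacnb4, a subunit of voltage-gated calcium channels chosen likewise, rose by 1.03 (0.0261).

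Snph encodes syntaphilin, known for docking mitochondria in axons, and was lower in CB1KO. Its level was -0.09, -0.46, -0.10 and -0.10 on WT_SD and -3.34, -2.15, -0.86 and -1.77 on CB1KO_SD. HFHS arrays had it at -0.36, -0.38, -0.62 and 0.05 on WT and -2.23, -2.52, -2.83 and -2.71 on CB1KO. No CB1KO array reached the lowest WT array on any diet. It fell by 2.05 (SE 0.26), with adjusted p = 0.00425 by limma, and kept its call in all 16 fits with an array left out.

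Of the cell cycle inhibitors measured, Cdkn1a and Cdkn2a were called, both higher. Cdkn1b and Cdkn2b were at -0.20 each and Cdkn1c at 0.35 (limma adjusted p = 0.108). Cdkn1a, the p53-responsive inhibitor p21, was at 1.93, 1.83, 1.18 and 0.72 on WT_SD and at 2.41, 2.13, 2.25 and 2.92 on CB1KO_SD. With HFHS feeding it was at 0.37, 0.50, 1.25 and 0.32 on WT and at 1.73, 1.98, 3.57 and 3.40 on CB1KO. The genotypes do not overlap on either diet, though only narrowly on SD. The difference was 1.54 (SE 0.29; limma adjusted p = 0.0321), kept in 6 of 16 fits with an array left out and highest at 0.0844 without WT_HFHS replicate 4. Another probe of Cdkn1a gave -0.07, so the gene's probes disagree. Cdkn2a, which encodes p16 and p19Arf, rose by 1.63 (SE 0.29; adjusted p = 0.0252, limma), by 0.75 on SD and 2.51 on HFHS. Gadd45a, a growth arrest gene, rose by 0.65 (0.0291), with 0.20 on SD and 1.1 on HFHS. On SD, limma's unadjusted p was 0.27 for Gadd45a and 0.094 for Cdkn2a, and the genotypes overlapped for both. Of 26 genes in the growth arrest and p53 list, Cdkn1a, Cdkn2a and Gadd45a were shared and higher. Eda2r, a p53-induced death receptor, was shared and lower at -0.55 (limma adjusted p = 0.0469). The list median was 0.06 against -0.12 for all genes. Members that were not called lay on both sides, with Btg2 at 1.78 (limma adjusted p = 0.209) and Pmaip1 at 1.55 (0.14), Perp at -0.41 (0.341) and Rrm2b at -0.38 (0.241), and Mdm2 and Bax at -0.14 and 0.11.

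Odc1, ornithine decarboxylase, the first enzyme of polyamine synthesis, was lower. It was at 5.98, 5.55, 5.14 and 5.74 on WT_SD and at 3.59, 4.09, 5.06 and 5.12 on CB1KO_SD. On HFHS it was at 5.07, 5.33, 4.39 and 4.91 on WT and at 4.08, 3.24, 3.48 and 2.73 on CB1KO. On SD, 2 CB1KO arrays came close to the lowest WT array without reaching it. The difference of -1.34 (SE 0.26; limma adjusted p = 0.0326) was matched by -1.25 and -1.16 on the other probes of Odc1. Its call was kept in 6 of 16 fits with an array left out, and was weakest without WT_HFHS replicate 2 (0.0822).

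The metallothioneins Mt1 and Mt2, small cysteine-rich proteins that bind zinc and copper, rose together. Mt1 was at 5.52, 5.74, 4.62 and 6.11 on WT_SD and at 6.55, 6.62, 7.60 and 8.53 on CB1KO_SD. HFHS arrays had it at 4.80, 5.29, 4.71 and 4.70 on WT and at 5.92, 5.44, 6.86 and 6.91 on CB1KO. Neither diet shows an overlap for Mt1. Its difference was 1.62 (SE 0.32; limma adjusted p = 0.0395), and a second probe gave 2.62. Mt2 was at 5.01, 5.21, 3.84 and 6.26 on WT_SD and at 6.16, 6.42, 7.40 and 8.36 on CB1KO_SD, where 1 WT array lies above 1 CB1KO array. With HFHS feeding it was at 3.98, 5.14, 3.17 and 3.78 on WT and at 6.18, 5.84, 6.74 and 6.67 on CB1KO, with no overlap. The difference was 2.17 (SE 0.40; limma adjusted p = 0.0261). With 1 array left out, Mt1 kept its call in 5 and Mt2 in 10 of 16 fits, with the weakest adjusted p at 0.0951 without WT_HFHS replicate 4 for Mt1 and 0.0664 without CB1KO_HFHS replicate 3 for Mt2. The genes are related in sequence, and whether the probe of one also takes up the other transcript was not tested.

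Mt2 and Mt1 are direct neighbours among the genes tested on chromosome 8. Their promoters are shown because they rose together and both hold TGCNCNC, a loose pattern for the metal response element of the zinc sensor Mtf1. N stands for any base, and whether Mtf1 reads each match was not tested. The RefSeq sequences (GRCm38.p6) run 5′ to 3′ on the gene's strand, with matches on either strand in capitals.
Mt1 (chr8:94178839-94179138, plus strand): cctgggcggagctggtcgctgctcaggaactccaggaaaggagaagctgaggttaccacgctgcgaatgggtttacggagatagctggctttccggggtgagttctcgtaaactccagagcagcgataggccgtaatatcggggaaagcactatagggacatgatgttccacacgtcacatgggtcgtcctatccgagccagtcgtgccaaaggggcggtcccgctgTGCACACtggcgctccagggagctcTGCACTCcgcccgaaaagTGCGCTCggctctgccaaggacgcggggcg
Mt2 (chr8:94172368-94172667, plus strand): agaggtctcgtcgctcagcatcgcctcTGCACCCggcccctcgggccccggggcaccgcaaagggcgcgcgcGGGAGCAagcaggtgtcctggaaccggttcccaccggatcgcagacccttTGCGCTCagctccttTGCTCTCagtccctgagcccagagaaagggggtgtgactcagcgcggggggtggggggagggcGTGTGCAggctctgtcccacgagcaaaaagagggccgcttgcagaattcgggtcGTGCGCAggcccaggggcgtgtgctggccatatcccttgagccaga
Mt1 held 3 matches, the first of them 23 bases before the start, and Mt2 held 6, of which 5 lay before it. The motif is short: 50.4% of all promoters in the table held it, 64.3% of the shared higher genes and 61.2% of the shared lower genes. Mtf1 itself differed by 0.06, and of 15 metallothionein and zinc transport genes only these 2 were called. Mt3 was at 0.91 (limma adjusted p = 0.14) and the zinc exporter Slc30a1 at -0.33 (0.093).

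Rgs2 encodes a regulator that ends signals of Gq-coupled receptors. It was at 2.05, 2.11, 1.38 and 2.24 on WT_SD and at 3.57, 3.27, 3.04 and 3.67 on CB1KO_SD. On HFHS it was at 2.25, 2.04, 2.11 and 2.26 on WT and at 3.18, 3.98, 4.15 and 3.96 on CB1KO. All CB1KO arrays lay above all WT arrays on both diets, and the rise was 1.55 (SE 0.16), or 2.92-fold, with adjusted p = 0.000945 by limma. It was 1.44 on SD and 1.65 on HFHS. The other 16 genes of this family that were measured were not called, and the list median was 0.08. None of 15 endocannabinoid genes was called either, with a median of -0.18. Dagla, which makes 2-arachidonoylglycerol, came nearest at -0.47 (limma adjusted p = 0.25).

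Fgl1, a fibrinogen-like protein known as a secretion of the liver, stood well above background on none of the 8 WT arrays, on 3 of 4 CB1KO_SD arrays and on all 4 CB1KO_HFHS arrays. It passed the filter on dim probes through CB1KO arrays alone, and had to differ to do so. Taking each WT array at the lowest level called well above background, it was at least 3.92-fold higher in CB1KO, and limma's adjusted p of 0.000945 rests on WT values below background. Plekhh1, a membrane-binding protein with a pleckstrin homology domain, was at -3.61, -3.23, -3.65 and -3.84 on WT_SD and at -1.89, -1.79, -2.35 and -0.65 on CB1KO_SD. HFHS arrays had it at -2.51, -3.59, -3.33 and -3.24 on WT and at -0.33, -0.10, 0.77 and 0.62 on CB1KO. Every CB1KO array was above every WT array, and the rise was 2.66 (SE 0.25; limma adjusted p = 0.000945). Its size was 1.91 on SD and 3.41 on HFHS.

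Htra4, a secreted serine protease of the HtrA family, had the largest fall. It was at 1.34, 0.27, 0.79 and 1.07 on WT_SD and at -2.67, -1.11, -0.97 and -3.45 on CB1KO_SD. With HFHS feeding it was at -0.23, -0.58, -0.90 and 0.07 on WT and at -1.81, -2.87, -4.35 and -4.38 on CB1KO. No CB1KO array reached a WT array. The fall of 2.93 (SE 0.43; limma adjusted p = 0.0098) was -2.92 on SD and -2.94 on HFHS. Dnase1, a secreted nuclease, fell by 1.58 (adjusted p = 0.0167, limma) and Elf3, an epithelial transcription factor, by 1.54 (0.0211). Elf3 was dim, standing well above background on 2 of 4 WT_SD, 4 of 4 WT_HFHS and 1 of 4 arrays in each CB1KO group. The size of its fall therefore rests partly on values not well above background. Has1, a hyaluronan synthase, rose by 2.57 (0.0293), with 3.80 on SD and 1.34 on HFHS, where the genotypes overlap. Of 20 collagen and matrix genes it was the only one called, and 13 of the 20 were higher on both diets.

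Among immune genes the shared ones did not move as 1 group. Cd28, the costimulatory receptor of T lymphocytes, was at 0.41, -0.02, -0.18 and 0.73 on WT_SD and at -0.92, -1.81, -0.73 and -1.37 on CB1KO_SD. On HFHS it was at 0.78, 0.95, -0.15 and 1.38 on WT and at -1.72, -1.52, -1.40 and -1.42 on CB1KO. The genotypes did not overlap over all 16 arrays, and Cd28 fell by 1.85 (SE 0.22; limma adjusted p = 0.00235). Cytip, a lymphocyte adhesion regulator from the same marker list, rose by 1.46 (0.0211), and the remaining 11 T lymphocyte markers were not called. Of the 13 markers, 7 were higher and 1 lower on both diets, with Cd5 at 0.66 (limma adjusted p = 0.0978), Lck at 0.81 (0.302) and Il7r at 1.11 (0.348). Of the defining chains, Cd3e was at 0.02 and Cd3g at 0.06, and Cd3d was well above background on no CB1KO_SD array. Averaged over the 13 markers, the level ran from -2.38 to -1.87 on WT_SD, from -2.40 to -1.92 on CB1KO_SD, from -2.23 to -1.94 on WT_HFHS and from -2.25 to -1.20 on CB1KO_HFHS. Bst2, an interferon-induced antiviral membrane protein, rose by 1.64 (SE 0.29; limma adjusted p = 0.0245), and the other 20 interferon-response genes were not called, with 14 of the 21 higher on both diets.

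Macrophage markers were not called, although 8 of 14 were higher on both diets and none lower on both. Their mean level ran from 0.25 to 1.76 on WT_SD and from 0.20 to 1.32 on CB1KO_SD, and from 0.30 to 1.00 on WT_HFHS and from 0.98 to 1.97 on CB1KO_HFHS. Of the 15 chemokines and cytokines none was called, with a median of 0.51. Ccl7, a monocyte attractant, was at 1.56 (limma adjusted p = 0.11). The part of immune cells in the shared genes was not tested.

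**Figure D3:**
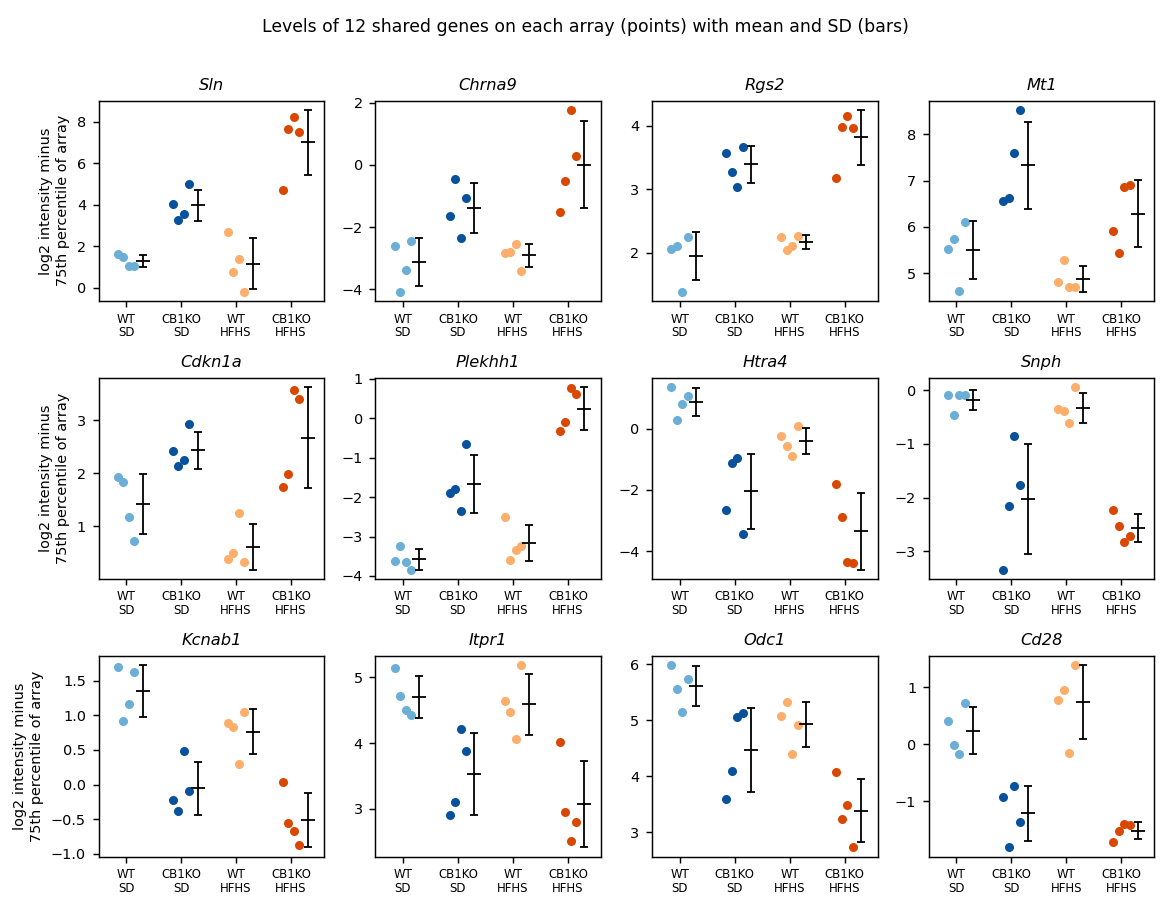
Log2 level of 12 shared genes on each of the 16 arrays, relative to the 75th percentile of the array, by group; points are arrays and bars give mean and SD (n = 4). Sln, Chrna9, Rgs2, Mt1, Cdkn1a and Plekhh1 are higher and Htra4, Snph, Kcnab1, Itpr1, Odc1 and Cd28 lower in CB1KO, without overlap within a diet.

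Most metabolic lists held no shared gene. None was called among 20 genes of insulin signalling and glucose use (median -0.08), 20 of fatty acid uptake and oxidation (-0.03), 18 of the respiratory chain (-0.09), 19 clock genes (-0.12) or 20 of atrophy and autophagy (-0.09). At an unadjusted p under 0.05, these lists held 4, 0, 2, 2 and 4 genes, where 14.2% of all genes tested passed. In the integrated stress response, Chac1, a glutathione-degrading enzyme, fell by 0.82 (limma adjusted p = 0.0321) and was the only 1 of 20 called. Hspa1a, the inducible heat shock protein, was the gene called in the averaged contrast that did not meet the rule. It was at -0.97, -0.83, -1.0 and -1.15 on WT_SD and at 1.68, 2.64, 2.31 and 3.01 on CB1KO_SD, a rise of 3.40 (limma adjusted p = 0.0125). HFHS arrays had it at -1.20, 0.16, 0.15 and -1.20 on WT and at -1.45, -0.73, -0.86 and 0.01 on CB1KO, where the genotypes overlap. Its interaction was -3.64, with adjusted p = 0.305 by limma.

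**Figure D4:**
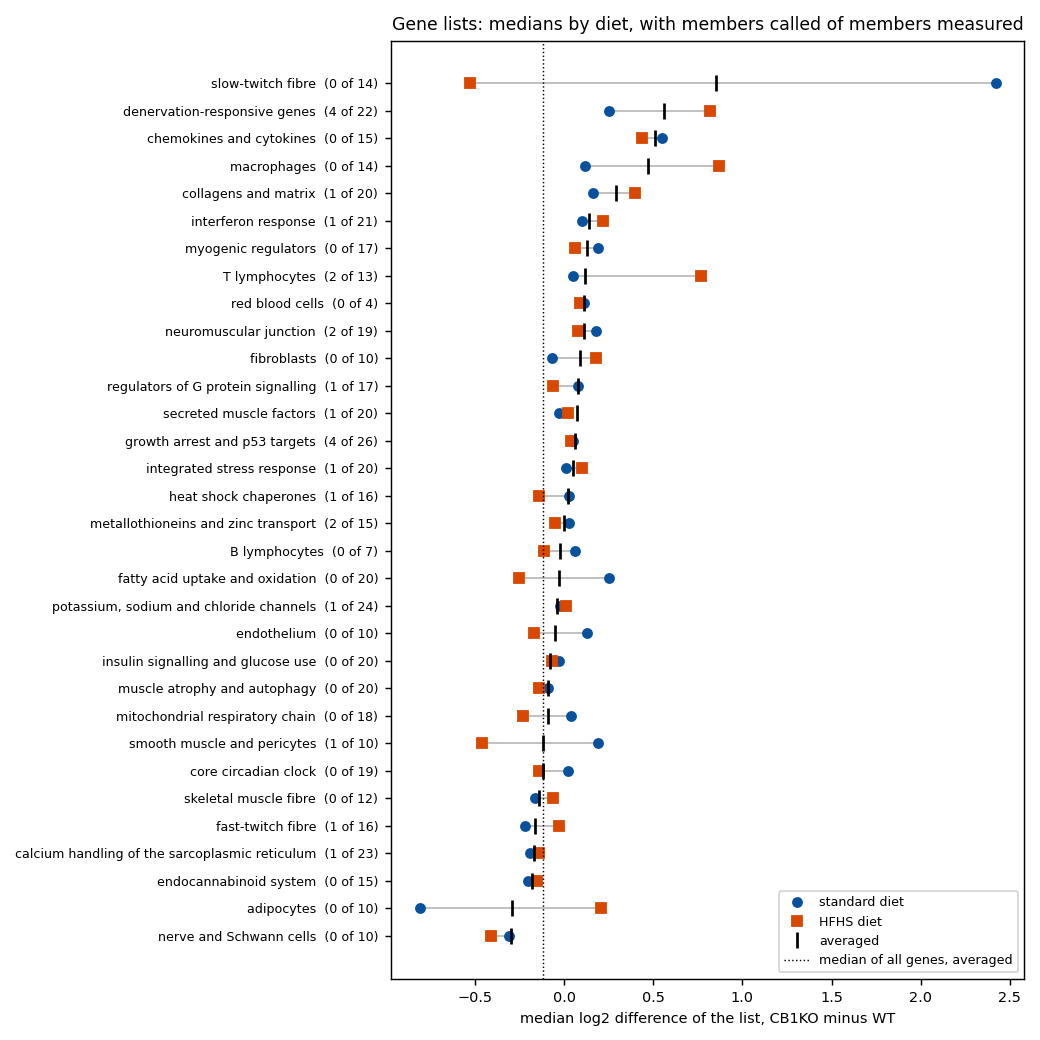
Median log2 difference between CB1KO and WT for 32 gene lists on SD, on HFHS and averaged, with the number of members called of those measured in brackets and the median of all genes (-0.12) dotted. Denervation-responsive genes lie at 0.56 averaged, and slow-fibre genes at 2.42 on SD and -0.53 on HFHS.

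The shared genes most even across the diets were taken as the 5 in each direction with the smallest interaction relative to their averaged difference. Higher ones were Bst2 (1.67 on SD and 1.61 on HFHS), Cyp4f18 (0.99 and 1.09), Klhl10 (0.99 and 1.08), Scube2 (0.68 and 0.76) and Tbc1d9. Another probe of Scube2 gave an averaged difference of 0.08, against 0.72 for the probe used. With an array left out, calls were kept in 12 of 16 fits for Bst2, 10 for Cyp4f18, 5 for Klhl10, and 3 for Scube2 and for Tbc1d9. Tbc1d9 was well above background on no WT_SD array, and its rise is at least 1.36-fold. The most even lower ones were Htra4, Fgf20 (-1.74 and -1.71), Cadm1 (-1.02 and -1.04), Olfr486 and Cfap221. Calls were kept in 16 of these fits for Htra4, 11 for Fgf20, 5 for Cadm1 and 3 for Cfap221. Olfr486 was well above background on no CB1KO array and Cfap221 on no CB1KO_SD array, with falls of at least 1.09-fold and 1.24-fold. For Tbc1d9, Olfr486 and Cfap221 the evenness rests on values below background and is not settled. The opposite end of the range is described with no test: Gadd45a, Cdkn2a and Sln had HFHS differences above their SD differences, and Has1 the reverse. Genes that separated the genotypes within both diets also included Gm4841 (4.34, SE 0.87), Gm34006 (1.16), AA467197 (1.11) and Tmem252 (at least 2.76-fold) among the higher ones. Lower ones were 1700001O22Rik (-1.90), Gm7904 (-1.15), Toporsl (at least 1.06-fold), Nat1 (at least 1.77-fold), 5730420D15Rik (at least 1.49-fold) and Serpind1 (at least 1.41-fold), a thrombin inhibitor of plasma. Tmem252 was well above background on no WT array, and Toporsl, Nat1, 5730420D15Rik and Serpind1 on no CB1KO array. These genes had to differ to pass the filter on dim probes, so their separation adds no support. Gm4841 was well above background on 2 of 4 WT_SD and 3 of 4 WT_HFHS arrays. Its call was kept in 6 of 16 fits with an array left out.

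The shared genes were spread over the genome with a few close neighbours. On the RefSeq gene order, 136 of 17333 tested genes with a symbol were shared (0.785%), with 13 of 881 on chromosome 8 (1.48%) and 18 of 1417 on chromosome 2 (1.27%). On chromosome 8, Fgf20, Cnot7 and Vps37a were lower and Fgl1 higher within a stretch with 8 other tested genes between its ends. On chromosome 11, Tbx2 was lower (-0.45) beside Tbx4 (0.79) and Ints2, which were higher, with no tested gene between them. Ints2 was well above background on the CB1KO_HFHS arrays only, so no fold is given. On chromosome 2, Tpx2, a spindle assembly factor (-1.44), and Mylk2 were adjacent and both lower. On chromosome 1, Elf3 and Lmod1 were lower and the cardiac troponin Tnnt2 was higher (2.70) in 1 stretch. Tpx2, Tnnt2 and the Tbx genes were chosen after their values were seen.

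Which genes were called depended on single arrays. With 1 array left out, 47 to 617 genes were called in place of 205. Among WT arrays, 56 were called without WT_SD replicate 1, 61 without WT_SD replicate 3, 90 without WT_HFHS replicate 1, 47 without WT_HFHS replicate 2 and 59 without WT_HFHS replicate 4. Among CB1KO_SD arrays the counts were 115, 617, 317 and 98 without replicates 1, 2, 3 and 4, and among CB1KO_HFHS arrays 311, 102, 71 and 82. In all 16 of these fits 41 shared genes kept their call and direction (24 higher and 17 lower), and 31 of these also kept them in each of the 13 other alternatives that could be run for them. Among the 31 were Sln, Chrna1, Fgl1, Plekhh1, Rgs2 and Gm34006, which were higher, and Htra4, Snph, Cd28, Kcnab1, Dnase1, Olfr486, Toporsl and Tpx2, which were lower. Higher genes of that set outside the naming rule, chosen after their values were seen, were Ngfr, a neurotrophin receptor (1.20), Gsdma, a pore-forming gasdermin (2.34), and Sgk2, a kinase of the SGK family (at least 2.57-fold). Fgl1 was well above background on no WT array, and Olfr486 and Toporsl on no CB1KO array. Sgk2 ran from -6.59 to -6.15 on WT_HFHS, under the lowest level called well above background (-5.14), and from -6.55 to -4.41 on WT_SD. Fgl1, Olfr486 and Toporsl had to differ to pass the filter on dim probes, and Sgk2 passed it mainly through CB1KO arrays. The kept calls of these genes therefore add no support. No shared gene changed direction in any of the fits.

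**Figure D5:**
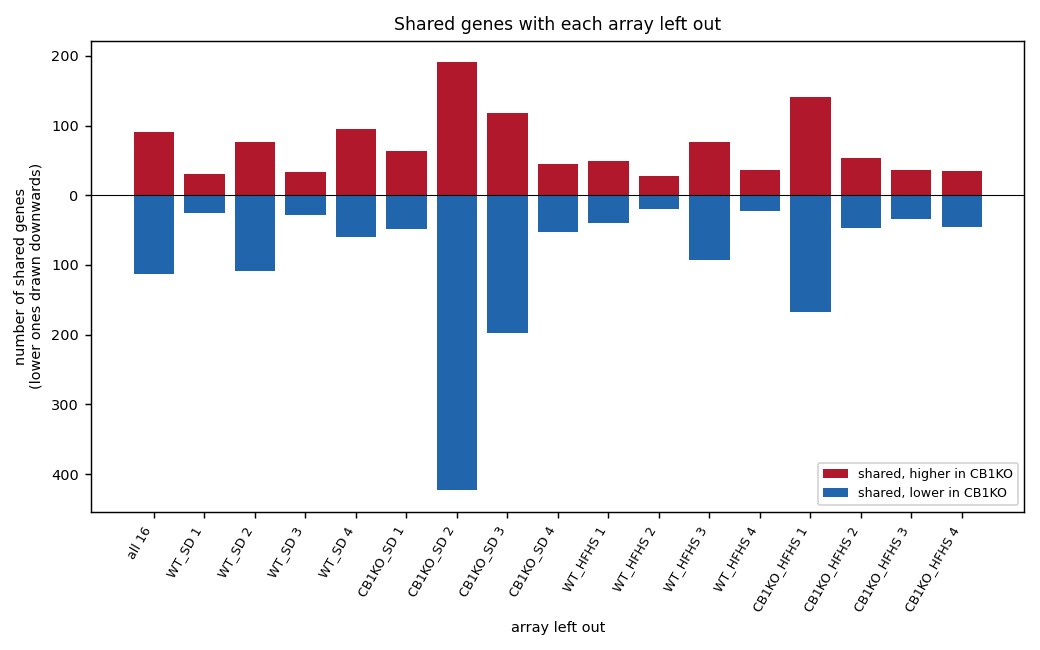
Number of shared genes with all 16 arrays and with each array left out (x), higher in CB1KO drawn upwards and lower ones downwards. Leaving out CB1KO_SD replicate 2 gives the highest counts (191 higher and 423 lower) and leaving out WT_HFHS replicate 2 the lowest (27 and 19).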

How the data were processed

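The authors' scanner files, made with Agilent Feature Extraction 11.5.1.1 per the file headers, give a background-corrected processed intensity of each spot, with no scaling between arrays, beside raw median intensities. In the deposited series table each spot has a score, which equalled the z-score of the log2 processed intensity of the array to within 0.005. It was used as an alternative only. Of 62976 spots, 59305 were not controls and measured 55681 probes; 28026 of these took a RefSeq symbol through their accession and 27655 are named by the file's own identifier. The RefSeq tables (GRCm38.p6) are of another build than the array, so they gave gene order and promoter sequences with their own coordinates, and no probe was placed on them.

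The log2 processed intensity minus the 75th percentile over probes was analysed. Outlier spots were set to missing, spots of a probe averaged, probes kept if well above background on at least 4 of 16 arrays, and the brightest probe taken per gene. A model with 1 mean per group was fitted with limma 3.58.1 (lmFit, eBayes) in R 4.3.3. Tests were two-sided, with Benjamini-Hochberg adjustment over 28964 genes and a threshold of 0.05. Where no array of a group was well above background, fold changes are lower bounds against the lowest level called well above background on each array (-5.14 to -2.59). The code was tested on simulated data. Precision is limited by the number of arrays.

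The members and gene lists were chosen with earlier results of these data known. Genes are named by rule: Cnr1, Il6 and Mstn; up to 15 higher and 15 lower shared genes with a symbol whose genotypes did not overlap on either diet, by size; called genes with opposite signs on the diets; called members of each list, or the 1 or 2 with the smallest p; and the 5 most even genes in each direction. Alternatives were quantile normalization alone or after normexp (offset 50), the deposited z-scores, leaving out the filter or requiring every array to pass it, keeping outlier spots, averaging the probes of a gene, a trend with robust variances, array weights, replicate or slide as a block, signal SD as a covariate, and arrays left out. No coordinates of probes and no protein sequences were used here. A gene that the naming rule picks is not reported here.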

Additional observations from a re-analysis of the deposited data

Results flagged for a closer look

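Values in every array were examined for 19 genes in 4 groups each, 76 sets of 4 arrays, by the gap of the highest or lowest array to its nearest neighbour. In 3 sets that gap took up nearly the whole range. Mt1 was at 5.29 on WT_HFHS replicate 2, above the other WT_HFHS arrays at 4.70 to 4.80 and below all CB1KO_HFHS arrays. Snph was at -0.46 on WT_SD replicate 2, where the other WT_SD arrays lay at -0.10 to -0.09. Il6 was at -1.92 on CB1KO_HFHS replicate 4, above the other CB1KO_HFHS arrays at -3.35 to -3.20. Chance alone gives such a gap in about 1 in 20 sets.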

How the results depend on the processing

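Leaving out 1 array gave 47 to 617 called genes, 27 to 191 shared higher and 19 to 423 shared lower genes. The called, shared higher and shared lower counts, 205, 91 and 113, became 369, 153 and 214 with quantile normalization, 388, 169 and 215 with normexp and quantile normalization, 1961, 672 and 1256 with array weights, 1728, 343 and 1368 with signal SD as a covariate, and 891, 295 and 588 when the 2 arrays of unusual spread were left out. Without a filter, 135 were called and 61 were shared and lower. The median of all genes moved from -0.12 to -0.02 with normexp and quantile normalization. With the replicate block the counts were 59, 35 and 23. Replicate numbers equal the slide column, and what else same-numbered arrays share is not given. Deviations of same-numbered arrays of different groups had a median correlation of 4.1e-05. The correlations ran from -0.75 to 0.61, with 8 of 24 pairs over 0.1. A median does not decide whether same-numbered arrays belong together. The cause of these changes was not tested. Of genes picked on SD, 80.9% of higher and 88.3% of lower ones pointed the same way on HFHS at a pick p under 0.01, and 87.1% and 90.9% at a p under 0.001. Picked on HFHS, 79.9% of higher ones did so on SD at 0.01, and 88.9% of higher and 91.3% of lower ones at 0.001. Without both unusual arrays the share was 71.3% for lower genes picked on SD (58.5% of all genes), and 67.0% and 73.0% for higher and lower genes picked on HFHS (35% and 65% of all genes). With quantile normalization it was 77.4% for lower genes picked on HFHS (58.6% of all genes). No named gene reversed direction with 1 array left out. List medians were compared by the size of their shift, so a change of sign in a small median was not counted. Probes not well above background limit the dimmer genes to bounds.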
